A study of Mus musculus with 2 samples.

Results

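WNT ligands, their Frizzled receptors and the secreted proteins that tune them were followed through 2 single-cell libraries of mouse embryos. The members were all genes of the Wnt, Fzd, Sfrp, Dkk and Rspo families in the feature list. They were taken by their symbols, and there were 41 of them among 32285 features. They comprised 19 Wnt, 10 Fzd, 4 Sfrp, 4 Dkk and 4 Rspo genes. The control library came from Isl1-Cre;R26R-eYFP embryos and the mutant library from Isl1-Cre;R26R-eYFP;Pik3caH1047R embryos, both at E13.5. Both genotypes carried Cre and the eYFP reporter and were bred on a mixed C57BL/6J and CD1(ICR) background, so they differed in the Pik3caH1047R allele alone by label. Cre was driven by Isl1, and only cells that descend from Isl1-expressing cells were marked and, in the mutant, recombined. Each library pooled 3 embryos, dissected above the liver and sorted for eYFP, so that each genotype was 1 sample and no test between genotypes was possible.

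WNT ligands are lipid-modified secreted proteins that bind Frizzled receptors on nearby cells, with LRP5 or LRP6 as co-receptor for the branch that stabilises β-catenin. Secreted Frizzled-related proteins (Sfrp) bind WNT ligands outside the cell, Dickkopf proteins (Dkk) mostly block the co-receptors, and R-spondins (Rspo) keep Frizzled receptors on the surface by restraining the ligases that remove them. In the pharyngeal region and its vessels the pathway is known for patterning mesenchyme, lung and epithelium and for shaping the barrier and arterial properties of endothelial cells (EC).

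Cells with over 2000 and under 9000 detected genes and under 10% mitochondrial UMIs (unique molecular identifiers, each a counted transcript) were kept, which left 2783 of 4505 control cells and 3489 of 5357 mutant cells. The kept cells held 63153191 and 69717583 UMIs, with medians of 20412 and 16839 UMIs per cell, and 12 of their barcodes occurred in both libraries. They were clustered without the members and the other WNT pathway genes, and clusters were named from marker lists, so every class name below means cells like that type. The labelled tissue was pharyngeal arch, yet the cells also included lung and foregut mesenchyme-like cells and, in the mutant library alone, 47 hepatoblast-like cells. By X- and Y-linked transcripts 95.5% of control cells were female-like, whereas the mutant library held 33.6% female-like and 53.3% male-like cells. Pik3ca was read at 34.8 CPM (UMI counts scaled to a total of 1000000) in control and 36.7 CPM in mutant cells, and the counts do not separate the activated allele from the normal gene. EC-like cells were 148 of the control and 699 of the mutant cells, and lung and foregut mesenchyme-like cells 340 and 64. Smooth muscle and mural-like cells were 102 and 42. A finer clustering (resolution 0.8) gave that name to only 39 and 25 cells. The class therefore also held other cells, and its make-up was not compared between the libraries.

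All 41 members had at least 1 UMI in the kept cells and 35 had 100 or more. The class with the highest CPM was the same in both libraries for 25 of those 35, and for 14 of the 15 Wnt ligands among them. Levels are CPM of the UMIs summed over a class, given with exact 95% Poisson intervals that cover counting error only. Levels are compared between classes and libraries for the same gene and not between genes.

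**Figure D1:**
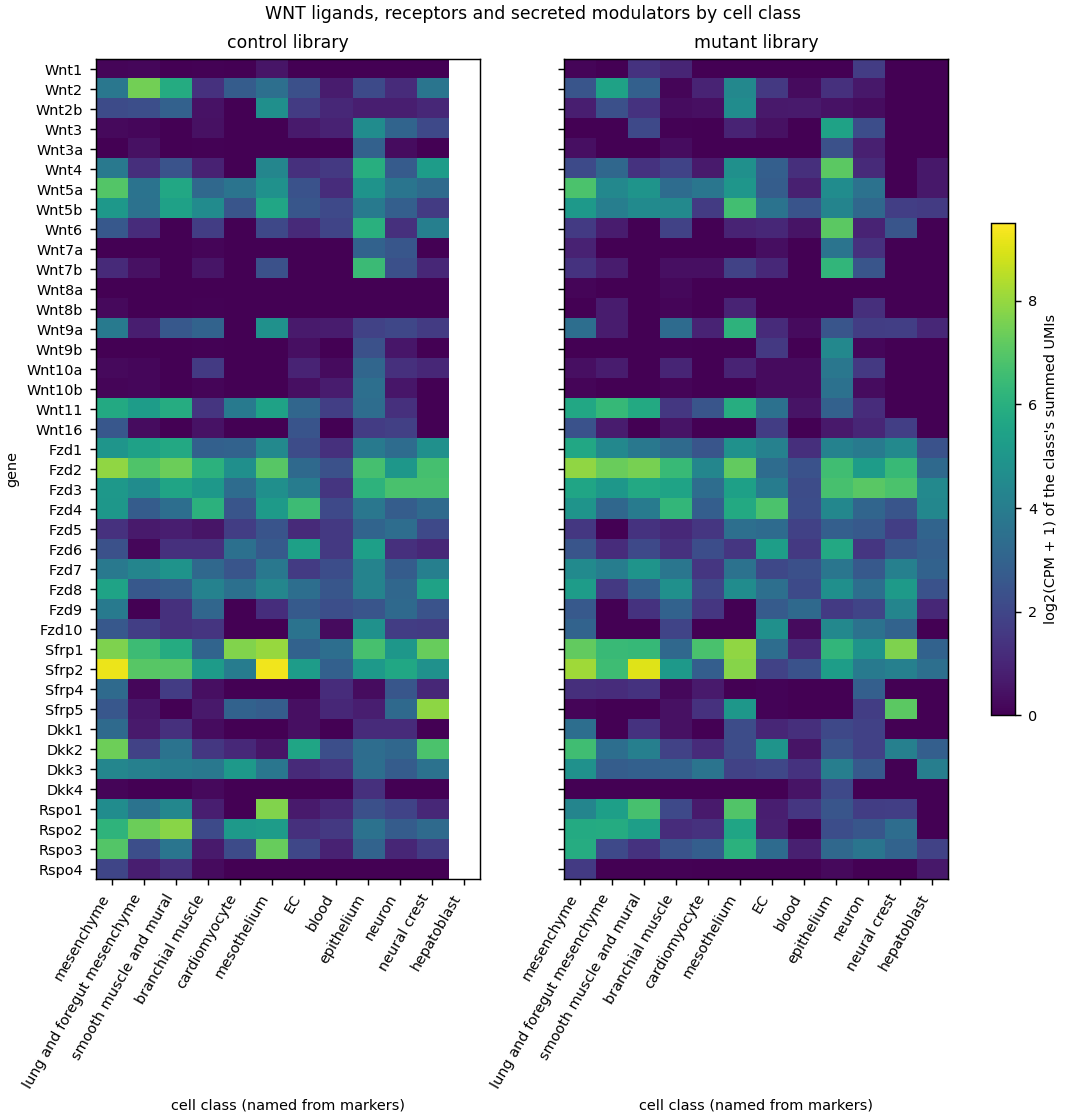
Levels of the 41 members in 12 cell classes, as log2(CPM + 1) of the summed UMIs, in the control (left) and mutant (right) library; colours are compared along a row. The hepatoblast column is blank in the control, which held 0 such cells, and the epithelium column is the brightest for Wnt3, Wnt4, Wnt6, Wnt7b, Wnt9b, Wnt10a and Wnt10b in both libraries.

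Epithelium-like cells had the highest level of 9 ligands in both libraries: Wnt3, Wnt3a, Wnt4, Wnt6, Wnt7a, Wnt7b, Wnt9b, Wnt10a and Wnt10b. For Wnt7a in the control the interval (6.88 CPM) overlapped that of neuron-like cells (4.79 CPM), so the order was not resolved there. Wnt7b, an epithelial signal to lung and body wall mesenchyme, stood at 87.0 CPM in control and 75.2 CPM in mutant epithelium-like cells, against 4.14 and 4.68 CPM in the next class of each library. Wnt3 stood at 23.8 and 42.9 CPM, with neuron-like cells next at 7.32 and 3.77 CPM. Wnt10b stood at 10.1 and 10.7 CPM, with neuron-like cells next among the compared classes at 0.505 and 0.260 CPM. 

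Mesenchymal and mesothelial cells sent a different set. Wnt5a, the main ligand of the β-catenin-independent branch, was highest in mesenchyme-like cells, at 124 CPM in control and 110 CPM in mutant, with smooth muscle and mural-like cells (50.5 CPM) and mesothelium-like cells (30.7 CPM) next. Wnt16 led there too, at 4.91 and 4.20 CPM, overlapping the next class in both. Wnt2, a mesenchymal ligand of lung formation, was highest in lung and foregut mesenchyme-like cells at 175 and 43.6 CPM. Mesothelium-like cells led for Wnt2b (25.8 and 23.5 CPM), Wnt5b (48.3 and 96.8 CPM) and Wnt9a (27.1 and 69.6 CPM). For Wnt5b in the control, the intervals of mesothelium-like and smooth muscle and mural-like cells overlapped, so their order was not resolved. Wnt11, which acts on cell movement and heart formation, had no fixed leader: it was highest in smooth muscle and mural-like cells in the control (57.2 CPM, overlapping mesenchyme-like cells at 53.6 CPM) and in lung and foregut mesenchyme-like cells in the mutant (82.0 CPM, overlapping mesothelium-like cells at 58.8 CPM). Wnt1, Wnt8a and Wnt8b had 4, 0 and 3 UMIs among all control cells and 38, 4 and 15 among mutant cells, and no sender is named for them.

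The ligand genes that lie close together on a chromosome did not all share a source. On GRCm38, 4 pairs of members lay within 100000 bases of each other, all of them Wnt genes. Wnt6 (chromosome 1, 74771892 to 74785322) and Wnt10a (74791516 to 74804179) both led in epithelium-like cells, as did Wnt9b (chromosome 11, 103727364 to 103749821) and Wnt3 (103774150 to 103817957). Wnt3a (chromosome 11, 59248033 to 59290752), in contrast, led in epithelium-like cells while its divergent neighbour Wnt9a (59306928 to 59333552) led in mesothelium-like cells. The contrast rests on that pair alone, and Wnt3a had 68 UMIs over all kept cells. For Wnt10b and Wnt1 on chromosome 15 the latter was too sparse to place.

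Receptors were spread more widely than ligands. Fzd2, a receptor of mesenchyme, was highest in mesenchyme-like cells at 241 and 240 CPM, followed by smooth muscle and mural-like cells at 164 and 187 CPM. Fzd4, the receptor through which Norrin and WNT signals act on vessels, was highest in EC-like cells at 90.6 and 111 CPM, followed by branchial muscle-like cells at 68.3 and 77.1 CPM. Fzd3, known for axon guidance, was highest in neuron-like cells at 108 and 135 CPM, with intervals that overlapped those of neural crest-like cells (107 and 111 CPM). Fzd8 was highest in mesenchyme-like and Fzd7 in smooth muscle and mural-like cells in both libraries, each overlapping the class that came next. The class with the highest level was not the same in both libraries for the other 5 receptors. It was smooth muscle and mural-like in the control and mesenchyme-like in the mutant for Fzd1 (52.03 and 50.9 CPM), neuron-like and mesothelium-like for Fzd5 (9.59 and 9.95 CPM) and EC-like and epithelium-like for Fzd6 (41.5 and 52.3 CPM). For Fzd9 it was mesenchyme-like and neural crest-like (13.95 and 18.97 CPM), and for Fzd10 epithelium-like and EC-like (27.04 and 26.3 CPM). For each of these 5 the highest class overlapped the next in at least 1 library. For Fzd5, Fzd6 and Fzd10 a change of leader was not resolved. In the mutant the leaders of Fzd1 and Fzd9 were clear of the next class. For Fzd1 mesenchyme-like cells stood in the control at 30.3 CPM (27.0 to 33.8), below lung and foregut mesenchyme-like cells (38.4 to 47.4). For Fzd9 neural crest-like cells stood in the control at 4.33 CPM (1.18 to 11.1), below mesenchyme-like cells (11.8 to 16.4). The mutant level of Fzd9 in neural crest-like cells came from 8 UMIs in 23 cells. The mixed blood cluster, led by macrophage and hemoglobin genes and not compared, read Fzd4 at 3.26 and 3.80 CPM. Such levels are given below as a reference, and how much of them was stray RNA or the cluster's own expression was not tested. The make-up of this reference differed between the libraries. The finer clustering gave 79 control and 135 mutant erythroid-like cells and 94 and 41 macrophage-like cells. Fzd9 was detected in 15.3% of mutant mixed blood cells, against 6.41% of mutant mesenchyme-like and 4.09% of mutant neuron-like cells. In the control these shares were 5.2%, 8.18% and 8.76%. Of the 18 control Dkk2 UMIs in the mixed blood cluster 10 were in 1 cell.

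Among the modulators, Sfrp1 and Rspo1 were highest in mesothelium-like cells in both libraries (258 and 242 CPM, 206 and 120 CPM), and so was Rspo3 (157 and 66.9 CPM), with mesenchyme-like cells next for Rspo3 at 124 and 58.6 CPM. Their intervals overlapped those of the next class for Sfrp1 in both libraries (cardiomyocyte-like cells at 206 CPM in the control, neural crest-like cells at 199 CPM in the mutant) and, in the mutant, for Rspo1 (smooth muscle and mural-like cells at 105 CPM) and Rspo3. Sfrp5 was highest in neural crest-like cells, at 233 CPM in 52 control cells and 135 CPM in 23 mutant cells. Dkk1 and Dkk2 were highest in mesenchyme-like cells, with Dkk1 overlapping mesothelium-like cells in the mutant. Dkk3 was highest in cardiomyocyte-like cells in the control (33.5 CPM) and in mesenchyme-like cells in the mutant (27.1 CPM). Sfrp4 was highest in mesenchyme-like cells in the control (8.84 CPM) and neuron-like cells in the mutant (6.37 CPM), overlapping the next class in both. Sfrp2 was highest in mesothelium-like cells in the control (620 CPM, overlapping mesenchyme-like cells at 599 CPM) but in smooth muscle and mural-like cells in the mutant (528 CPM). Rspo2 was highest in smooth muscle and mural-like cells (222 CPM) in the control and in lung and foregut mesenchyme-like cells (56.9 CPM) in the mutant, where mesenchyme-like cells (54.9 CPM) overlapped them.

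Differences between the libraries were read in the 8 classes with at least 50 cells in each library. A member was called higher or lower in the mutant where it had at least 20 UMIs over both libraries and the 95% counting interval of its ratio lay wholly beyond 1.5-fold. This interval holds no variation between embryos, and a call therefore compares 2 libraries. Of 47 calls, 21 were higher and 26 lower, and they fell on 22 of the 41 members. By class, 0% to 22.7% of the members tested were called higher and 3.03% to 29.0% lower. Over all genes tested these shares were 1.71% to 7.77% and 2.09% to 7.57%. For 38 of the 47 the higher of the 2 levels stood clear of the mixed blood cluster's level in that library, and in 14 more than 20% of the UMIs on the higher side came from 1 cell. The interval stayed beyond 1.5-fold for 31 of the 46 pairs that had a value when female-like cells of both libraries were compared, and for 35 of 47 when the male-like mutant cells were set against the control. It did so for 30 of 45 among cells scored as G1 by cell cycle genes, and for 19 of 47 when cells were thinned to 5000 UMIs. Cells with fewer UMIs, 61 in the control and 173 in the mutant, were dropped in that thinning. Most calls lost among G1, female-like or male-like cells are named with their class.

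**Figure D2:**
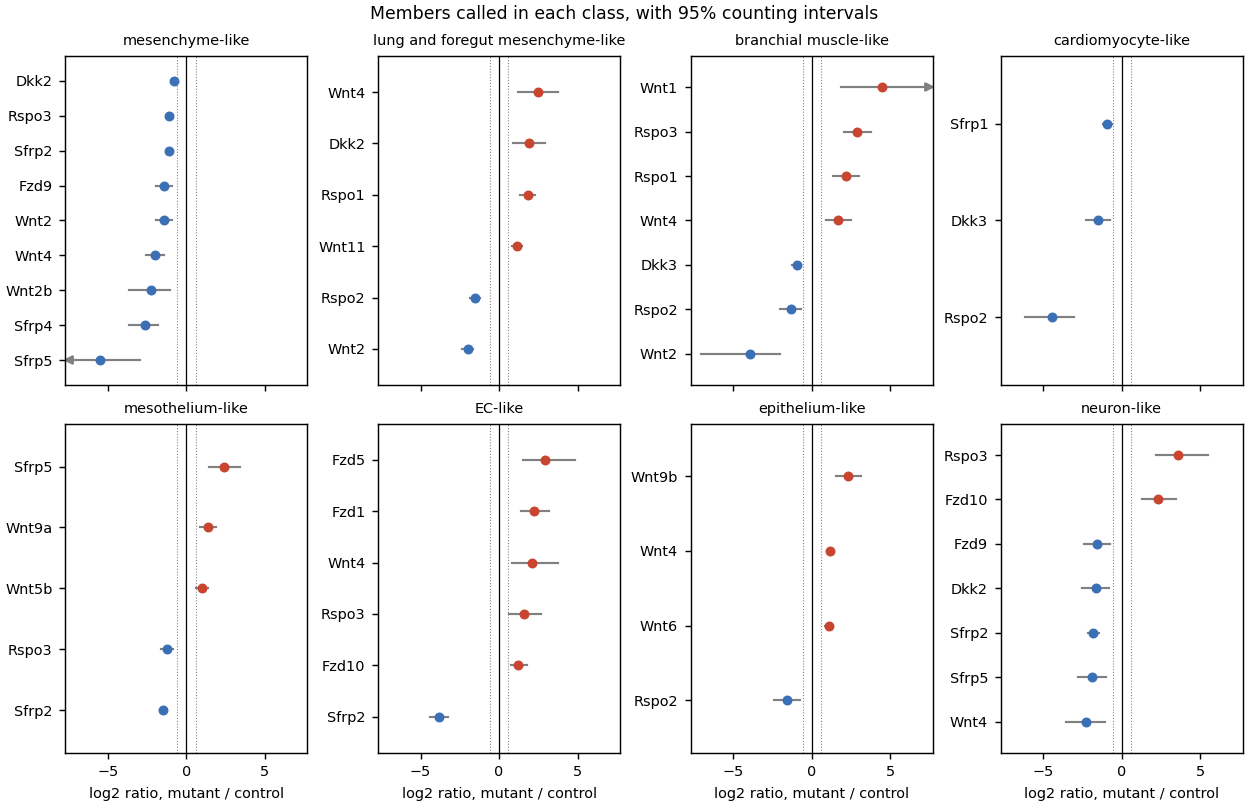
Log2 ratio of mutant over control CPM for the 47 called pairs of member and class, in 8 panels by class, with 95% counting intervals (arrows mark bounds off the axis); red points were higher and blue points lower in the mutant, and dotted lines mark 1.5-fold. All 9 mesenchyme calls lie left of 0 and 5 of the 6 EC calls lie right of it.

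In EC-like cells 3 Frizzled receptors, an R-spondin and a ligand were higher in the mutant and Sfrp2 was lower. Of 22 members tested, 5 were called higher and 1 lower, where 4.72% and 4.78% of all 14211 genes tested were. The median log2 ratio of the members was 0.45 and that of all genes tested -0.07.

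Fzd1, a broadly used β-catenin-branch receptor, rose from 3.64 CPM (1.88 to 6.35) in the control to 17.01 CPM (14.9 to 19.3) in the mutant, a log2 ratio of 2.23 (1.39 to 3.20). Among female-like cells the log2 ratio was 1.52 and the call was lost, with 10.3 CPM in female-like and 21.4 CPM in male-like mutant cells. Fzd1 was detected in 12 of 148 control cells (8.11%) and 158 of 699 mutant cells (22.6%), against 3.47% and 3.98% of the mixed blood cells. Fzd5, a receptor needed for yolk sac and placental vessels, went from 4 UMIs (1.21 CPM) to 127 UMIs (9.12 CPM), a log2 ratio of 2.91 (1.52 to 4.81). The control level of Fzd5 was no higher than in the mixed blood cells (1.96 CPM), whereas the mutant level exceeded theirs (2.60 CPM). Fzd10 rose from 11.2 CPM (7.89 to 15.4) to 26.3 CPM (23.7 to 29.2), a log2 ratio of 1.23 (0.74 to 1.76). The interval of Fzd10 reached inside 1.5-fold when the libraries were not integrated, at a log2 ratio of 1.07.

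Other receptors of EC-like cells, Fzd4 among them, were not called. Fzd4 stood at 90.6 CPM (80.6 to 101) and 111 CPM (105 to 116), and was detected in 75.0% and 70.5% of the cells. Fzd6 stood at 41.5 and 39.2 CPM, Fzd3 at 14.8 and 15 CPM, and Fzd8 at 9.70 and 10.1 CPM. Their intervals overlapped between the libraries, except those of Fzd4.

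Fzd1 and Fzd5 rose and Sfrp2 fell in EC-like cells, and the 250 bases before their transcription starts are printed here so that their upstream regions can be compared. They come from RefSeq on GRCm38.p6, where 27 of the 41 members had an entry, and run 5′ to 3′ on the gene's strand. Those of Fzd10 and Wnt4 lay inside the longer gene models of GENCODE and are not printed. The capitals mark CTTTGA, the core of TCF/LEF sites, read on either strand, and matches are a description of these letters only.
Fzd1 upstream: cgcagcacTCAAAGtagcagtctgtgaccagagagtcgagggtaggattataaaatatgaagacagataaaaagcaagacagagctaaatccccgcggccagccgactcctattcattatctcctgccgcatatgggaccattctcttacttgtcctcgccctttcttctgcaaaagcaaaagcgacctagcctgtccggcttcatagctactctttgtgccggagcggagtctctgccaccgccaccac
Fzd5 upstream: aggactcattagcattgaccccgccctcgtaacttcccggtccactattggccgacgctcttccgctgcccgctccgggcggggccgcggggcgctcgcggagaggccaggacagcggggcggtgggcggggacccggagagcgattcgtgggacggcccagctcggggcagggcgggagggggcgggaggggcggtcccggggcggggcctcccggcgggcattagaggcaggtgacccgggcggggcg
Sfrp2 upstream: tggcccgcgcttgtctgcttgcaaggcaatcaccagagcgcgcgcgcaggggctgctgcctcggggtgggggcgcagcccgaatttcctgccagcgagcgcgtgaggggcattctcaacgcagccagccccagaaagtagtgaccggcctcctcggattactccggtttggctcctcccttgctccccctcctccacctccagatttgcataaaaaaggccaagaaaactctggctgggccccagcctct
They lie at chr5:4758217-4758466 (minus strand), chr1:64737751-64738000 (minus strand) and chr3:83766071-83766320 (plus strand). CTTTGA had 1 match in the Fzd1 window, on its reverse strand, and in 13.8% of all 32851 RefSeq windows of this length. The other motif searched on both strands, ACGTG, the core of hypoxia response elements, was in none of the 3 windows and in 16.6% of all windows. The Fzd5 and Sfrp2 windows were rich in G and C (76.4% and 63.6%) and that of Fzd1 was not (51.2%), with a median of 52.4% over all windows.

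Rspo3, an R-spondin that acts in vessel remodelling, rose in EC-like cells from 10 UMIs (3.03 CPM) to 126 UMIs (9.04 CPM), a log2 ratio of 1.58 (0.65 to 2.67), and the mixed blood cells read 0.869 and 0.80 CPM. Wnt4 rose from 5 UMIs (1.52 CPM) to 89 UMIs (6.39 CPM), a log2 ratio of 2.08 (0.80 to 3.73). Sfrp2 fell from 124 UMIs (37.6 CPM) to 37 UMIs (2.66 CPM), a log2 ratio of -3.82 (-4.39 to -3.28). In the control 61 of those 124 Sfrp2 UMIs were in 1 cell and only 15 of 148 cells held any, and without the highest cell of each library the log2 ratio was -3.01. Without integration it was -0.88, so the size of the Sfrp2 difference depended on which cells were put in the class. Removing the cells with the highest doublet scores left Rspo3 at a log2 ratio of 1.36, with an interval that reached inside 1.5-fold.

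The higher calls of EC-like cells depended on the cells compared. Among G1 cells the calls of Fzd5 (2.19), Fzd10 (1.24), Rspo3 (1.79) and Wnt4 (1.68) were lost and that of Fzd1 was kept (2.81). Among female-like cells Rspo3 (0.996) and Wnt4 (1.685) were lost as well as Fzd1, and with male-like mutant cells Fzd10 (1.09) was. With classes named from the finer clusters the call of Wnt4 was lost (1.48). With cells thinned to 5000 UMIs all 5 higher calls were lost, at log2 ratios of 0.86 (Wnt4) to 2.61 (Rspo3).

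A finer clustering divided the EC-like cells into 3 groups. The largest held most mutant UMIs of every raised member but Wnt4. It also held most mutant UMIs of all genes (11553442 of 13932876), so these shares do not place the members in it. That group, led by Fabp4, Kcne3 and Aplnr (108 control and 524 mutant cells), held 189 of 237 mutant UMIs of Fzd1, 104 of 127 of Fzd5, 335 of 367 of Fzd10 and 102 of 126 of Rspo3. Fzd1 went there from 2.94 to 16.4 CPM, Fzd5 from 0.735 to 9.002 CPM and Fzd10 from 11.8 to 29.0 CPM. Rspo3 went there from 8 UMIs (2.94 CPM) to 102 UMIs (8.83 CPM), a log2 ratio of 1.59 (0.55 to 2.84). In the group led by Bmx, Gkn3 and Gja4 (19 and 84 cells), Wnt4 went from 2 UMIs to 64 UMIs, or 6.61 to 42.6 CPM, a log2 ratio of 2.69 (0.78 to 5.77). Of the 89 mutant Wnt4 UMIs in EC-like cells 64 were in that group. Dkk2, not called in the class as a whole (46.7 and 29.4 CPM), stood there at 386 and 259 CPM, against 13.6 and 1.73 CPM in the largest group. In the group led by 4930542D17Rik, D5Ertd615e and Ldb2 (21 and 91 cells), Rspo3 had 0 UMIs in the control and 17 in the mutant. Fzd1 (7.19 to 25.04 CPM) and Fzd5 (7.19 to 20.5 CPM) had their highest mutant levels there, from 2 control UMIs each. Cells of that group were shallow, with a median of 8493 UMIs against 19875 in the largest group. In the group led by Bmx, Gkn3 and Gja4, Fzd1 stood at 6.61 and 17.3 CPM, again from 2 control UMIs, and Fzd10 was low at 3.30 and 3.998 CPM. The whole cluster of that group, with cells of other classes, matched the endocardial EC list best among the subtype lists (6 of 7 markers raised). Its leading genes, however, included Gja4 and Gja5 of the arterial EC list, whose score is not given here, so the group is not named as either type.

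**Figure D3:**
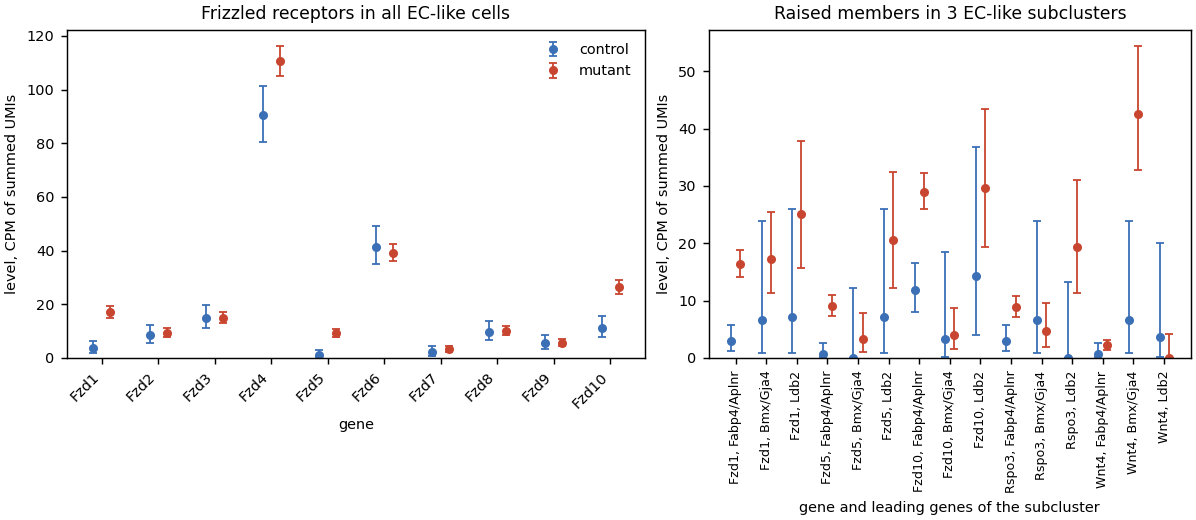
Left, CPM of the 10 Frizzled receptors in all EC-like cells of the control (blue, 148 cells) and mutant (red, 699 cells) library. Right, CPM of the 5 raised members in 3 finer EC-like clusters, named by leading genes; bars are exact 95% Poisson intervals. Fzd1, Fzd5 and Fzd10 are separated between libraries on the left, and Wnt4 reaches 42.6 CPM in the mutant Bmx/Gja4 group.

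Other WNT pathway genes in EC-like cells moved in both directions. Sost, a secreted co-receptor inhibitor, went from 6.67 to 28.6 CPM (log2 ratio 2.10), and Tpbg, a membrane inhibitor, from 9.70 to 21.9 CPM (1.17), while Kremen2, a Dickkopf receptor, went from 4.24 to 0.933 CPM (-2.18). These were the 3 called of 9 other modulators tested. Of 12 β-catenin target genes tested, Tnfrsf19 was higher (5.76 to 24.2 CPM, 2.07) and Ccnd1, which drives the G1 phase, was lower (326 to 151 CPM, -1.11), and the list's median was -0.37. The R-spondin receptor Lgr6 had 0 UMIs in the control and 27 in the mutant, a log2 ratio of 1.09 with the control entered as 3 UMIs. Mcc, kept in the co-receptor list although it acts inside the cell, was lower (110 to 44.4 CPM, -1.31), and Prickle1 of the planar cell polarity branch was higher (63.9 to 126 CPM, 0.97). No gene of the WNT secretion list (3 tested) or of the β-catenin core (18 tested) was called.

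In mesenchyme-like cells every called member was lower in the mutant. Of 31 members tested, 0 were called higher and 9 lower, where 4.28% and 5.71% of all 15203 genes tested were. The median log2 ratio of the members was -0.28 and that of all genes tested 0.00. The 9 comprised 3 Sfrp genes, 3 Wnt ligands, a Dickkopf, an R-spondin and a receptor.

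Sfrp2, an abundant extracellular WNT-binding protein of embryonic mesenchyme, fell from 599 CPM (584 to 615) to 283 CPM (272 to 294), a log2 ratio of -1.08 (-1.15 to -1.02). Rspo3 fell from 124 CPM (117 to 131) to 58.6 CPM (53.8 to 63.8), also -1.08 (-1.23 to -0.93). Dkk2 fell from 168 CPM (160 to 176) to 96.3 CPM (90.1 to 103), a log2 ratio of -0.80 (-0.92 to -0.69). With the finer clusters given the same weight in both libraries Dkk2 was at -0.65 and its interval reached inside 1.5-fold, as it did with male-like mutant cells (-0.55).

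Of the ligands called, Wnt4 fell from 13.46 to 3.44 CPM (log2 ratio -1.97, -2.57 to -1.40), Wnt2 from 12.8 to 4.73 CPM (-1.43, -1.96 to -0.93) and Wnt2b from 3.54 to 0.753 CPM (-2.23, -3.64 to -1.04). The control level of Wnt2b was not clear of the mixed blood cells. Sfrp4 fell from 90 to 13 UMIs (-2.66, -3.62 to -1.81) and Sfrp5 from 50 UMIs to 1 UMI (-5.51, -10.85 to -2.97). Fzd9, the receptor among them, fell from 14.0 to 5.27 CPM (-1.40, -1.90 to -0.93). Wnt5a, for which mesenchyme-like cells are the leading source, was not called at 124 CPM (117 to 131) and 110 CPM (103 to 117). The call of Wnt4 was lost among G1 cells (-1.23) and that of Wnt2b with male-like mutant cells (-1.67). With cells thinned to 5000 UMIs the calls of Sfrp2, Rspo3, Wnt4 and Fzd9 were kept and the other 5 were lost.

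The lower levels were not spread evenly through the class. In the largest finer cluster, led by Twist1, Cxcl13 and Egfl6 (384 control and 356 mutant cells), Sfrp2 went from 657 to 274 CPM (log2 ratio -1.26), Wnt4 from 120 to 14 UMIs (-2.77) and Sfrp4 from 84 to 2 UMIs (-5.07). Fzd9 sat instead in a cluster led by Susd5, Matn4 and Acan, genes of cartilage (51 and 59 cells), where it went from 119 to 28.4 CPM (-2.06). Rspo3 also fell there, from 112 to 16.6 CPM (-2.75), while Dkk2 stood at 44.8 and 72.3 CPM (0.69, 0.11 to 1.28). A cluster led by Dchs2, Cdh18 and Sema5a held the highest Dkk2, at 348 and 238 CPM. Its cells were shallow, with a median of 7671 UMIs in the whole cluster against 16858 in the largest. The class also held 15 control and 55 mutant cells of the cluster led by Bmx, Gkn3 and Gja4. In them Sfrp2 stood at 958 and 328 CPM, and Rspo3 had 0 and 36 UMIs. With classes named from the finer clusters, where that whole cluster was EC-like, the mesenchyme call of Dkk2 was lost (-0.62) and the others were kept. That setting moved other cells as well, so the part of these cells alone was not tested.

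Among other pathway genes of mesenchyme-like cells, Frzb, another secreted WNT-binding protein, was higher (7.96 to 22.3 CPM, log2 ratio 1.48), and Trabd2b, a WNT-cleaving protease, was lower (36.9 to 18.1 CPM, -1.03). Of 15 β-catenin targets tested, Lgr5 (34.8 to 18.5 CPM, -0.91) and Apcdd1 (64.5 to 36.0 CPM, -0.84) were lower and Tnfrsf19 higher (18.4 to 34.4 CPM, 0.91), with a list median of 0.02. None of the 4 secretion genes, 10 co-receptors or 19 core genes tested was called.

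**Figure D4:**
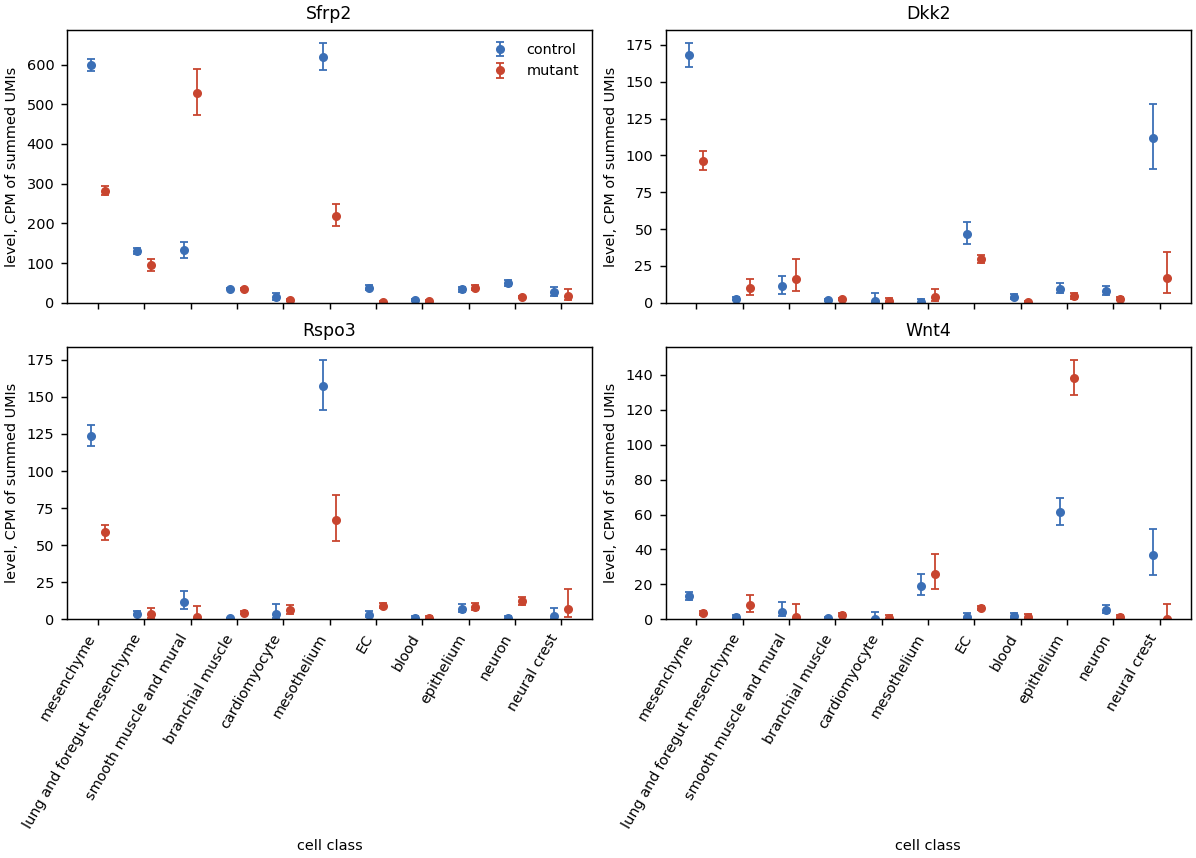
CPM of Sfrp2, Dkk2, Rspo3 and Wnt4 in 11 classes of the control (blue) and mutant (red) library, with exact 95% Poisson intervals; each panel has its own linear axis from 0. Sfrp2 and Rspo3 are lower in the mutant in mesenchyme and mesothelium, while Wnt4 is lower in mesenchyme and higher in epithelium.

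Lung and foregut mesenchyme-like cells had lower Wnt2 and Rspo2 in the mutant and higher Wnt11, Rspo1, Dkk2 and Wnt4. Of 20 members tested, 4 were called higher and 2 lower, where 2.4% and 2.09% of all 12358 genes tested were. The medians were -0.01 for the members and -0.04 for all genes tested.

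Wnt2 fell from 175 CPM (166 to 184) to 43.6 CPM (33.7 to 55.5), a log2 ratio of -2.004 (-2.38 to -1.65). Rspo2, an R-spondin of lung and limb growth, fell from 165 CPM (156 to 174) to 56.9 CPM (45.5 to 70.2), a log2 ratio of -1.53 (-1.86 to -1.22). Both fell in each of the 2 finer clusters: Wnt2 went from 186 to 35.9 CPM in the larger and from 150 to 67.3 CPM in the smaller. Wnt11 rose from 36.7 CPM (32.7 to 41.0) to 82.0 CPM (68.2 to 97.7), a log2 ratio of 1.16 (0.85 to 1.47), but only the larger finer cluster carried this (39.8 to 102 CPM), with 29.4 and 21.5 CPM in the smaller. Rspo1 rose from 11.3 to 39.7 CPM (1.81, 1.32 to 2.30).

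Dkk2 (22 and 15 UMIs) and Wnt4 (12 and 12 UMIs) were also called higher, at log2 ratios of 1.91 (0.86 to 2.92) and 2.46 (1.18 to 3.75), from few transcripts. In the mutant 1 cell held 33.3% of the Dkk2 UMIs and 1 cell 6 of the 12 Wnt4 UMIs, and without integration Wnt4 was at -0.23. The call of Dkk2 was lost among G1 cells (1.63) and without the highest cell of each library (1.54). The class had 340 control cells, 96.5% of them female-like, and 64 mutant cells, 87.5% male-like and 4.69% female-like. Only 3 mutant cells were female-like, with 0 to 2 UMIs of each called member, so genotype and sex of the source embryo cannot be told apart in it. Beside these members, the β-catenin target Axin2 was lower (29.6 to 9.26 CPM, log2 ratio -1.68) and the targets Notum (1.80 to 10.6 CPM, 2.56) and Apcdd1 (9.47 to 24.5 CPM, 1.37) were higher, 3 called of 14 tested. Daam2 of the planar cell polarity list was lower (95.1 to 26.4 CPM, -1.85).

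Epithelium-like cells had more of 3 of the ligands that they send. Of 33 members tested, 3 were called higher and 1 lower, where 3.61% and 3.76% of all 13697 genes tested were. The median log2 ratio was 0.23 for the members and -0.05 for all genes tested.

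Wnt4, a ligand of kidney, mammary and lung epithelium, rose from 61.5 CPM (54.1 to 69.6) to 138 CPM (129 to 148), a log2 ratio of 1.17 (0.96 to 1.38). It was detected in 34.1% of 211 control and 60.1% of 303 mutant cells, against 2.89% and 3.41% of the mixed blood cells. Wnt6, a ligand of surface ectoderm, rose from 65.2 CPM (57.5 to 73.5) to 138 CPM (128 to 148), a log2 ratio of 1.08 (0.88 to 1.29), and was detected in 29.4% and 46.2% of the cells. Wnt9b, known from kidney ducts and the face, rose from 17 UMIs (4.18 CPM) to 111 UMIs (20.5 CPM), a log2 ratio of 2.30 (1.55 to 3.13). The mixed blood cells held 0 Wnt9b UMIs in either library, which allows up to 0.652 and 0.6002 CPM by counting error (3 UMIs).

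The finer clusters differed in which ligand moved. In the largest, led by Sftpc, Mir205hg and Fermt1 (132 control and 198 mutant cells), Wnt4 went from 73.8 to 160 CPM, Wnt6 from 87.7 to 162 CPM and Wnt9b from 6.21 to 32.3 CPM. In the cluster led by Krt6a, Aldh3b2 and Lypd3, genes of maturing squamous epithelium (10 and 59 cells), Wnt4 was high in both libraries, at 183 and 169 CPM. With the finer clusters weighted alike, the log2 ratio of Wnt4 in the class was 0.78 and its interval reached inside 1.5-fold. In the cluster led by the inner ear genes Oc90 and Otol1 (34 and 15 cells), Wnt6 went from 21.1 to 150 CPM.

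Other ligands of epithelium-like cells were not called. Wnt7b stood at 87.0 CPM (78.2 to 96.6) and 75.2 CPM (68.1 to 82.9), Wnt10b at 10.1 and 10.7 CPM, and Wnt3a at 6.64 and 4.07 CPM. Wnt3 stood at 23.8 CPM (19.3 to 29.1) and 42.9 CPM (37.5 to 48.8), which missed the call. Rspo2 was called lower, from 44 to 20 UMIs (-1.55, -2.39 to -0.76), but 33 of the 44 control UMIs were in a cluster with the pituitary hormone genes Tshb and Cga among its leading genes, and without that cluster its log2 ratio was 0.07.

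**Figure D5:**
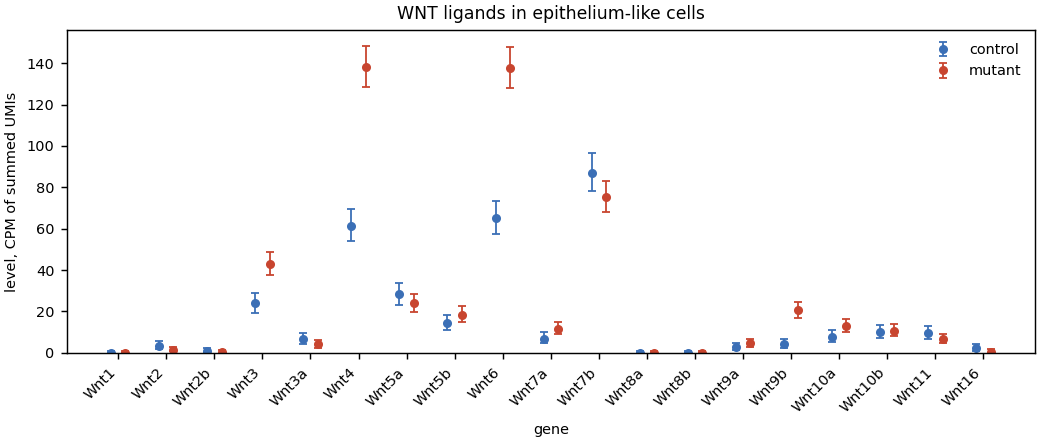
CPM of the 19 Wnt ligands in epithelium-like cells of the control (blue, 211 cells) and mutant (red, 303 cells) library, with exact 95% Poisson intervals on a linear axis from 0. Wnt4 and Wnt6 reach 138 CPM in the mutant from 61.5 and 65.2 CPM in the control, while the intervals of Wnt7b overlap.

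Beside the higher ligands, 3 of 14 β-catenin targets tested in epithelium-like cells were lower and 0 higher, with a list median of -0.59. Sp5, a direct target, went from 24.3 to 3.33 CPM (log2 ratio -2.87), Myc from 48.4 to 23.3 CPM (-1.06) and Ccnd1 from 281 to 142 CPM (-0.99). The R-spondin receptor Lgr6 (27.8 to 9.24 CPM, -1.59), Dvl1, which relays the Frizzled signal (18.4 to 7.58 CPM, -1.28), and Daam2 (13.03 to 5.18 CPM, -1.33) were lower as well. Gpc3, a glypican that binds WNT ligands, was higher (331 to 593 CPM, 0.84).

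Mesothelium-like cells repeated the mesenchymal fall of Sfrp2 and Rspo3 and had more Wnt5b and Wnt9a, while Wnt2b, the other ligand they led in, was not called. Of 21 members tested, 3 were called higher and 2 lower, where 7.53% and 2.72% of all 10933 genes tested were. The medians were 0.35 for the members and 0.05 for all genes tested.

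Sfrp2 fell from 620 CPM (587 to 654) to 219 CPM (192 to 248), a log2 ratio of -1.50 (-1.71 to -1.30), and Rspo3 from 157 CPM (141 to 175) to 66.9 CPM (52.5 to 84.0), a log2 ratio of -1.23 (-1.62 to -0.87). For Rspo3 the log2 ratio was -2.73 among female-like cells and -0.73 with male-like mutant cells, where the call was lost, from 24.4 CPM in 23 female-like and 94.7 CPM in 36 male-like mutant cells. Wnt9a rose from 27.1 CPM (20.7 to 35.0) to 69.6 CPM (54.9 to 87.0), a log2 ratio of 1.36 (0.85 to 1.87). Wnt5b rose from 48.3 CPM (39.5 to 58.5) to 96.8 CPM (79.3 to 117), a log2 ratio of 1.00 (0.60 to 1.40), which lay at the edge of the call. The call of Wnt5b was lost in 11 of 14 alternatives, TMM scaling (0.95), cells with at least 1000 genes (0.94) and G1 cells (0.38) among them. That of Wnt9a was lost among G1 cells (0.94) and female-like cells (1.34). Sfrp5 rose from 13 to 35 UMIs (2.40, 1.45 to 3.45), and its call was lost with male-like mutant cells (1.69). The cells were few, 70 and 66, and their median depth was 28114 UMIs in the control and 14080 in the mutant.

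Of 9 co-receptors and other WNT receptors tested in mesothelium-like cells, 5 were higher and 0 lower, with a median of 0.89. They included Lrp6 (48.3 to 101 CPM, log2 ratio 1.07), Ror2, a Wnt5a receptor (27.1 to 68.7 CPM, 1.34), and Adgra2 (5.06 to 18.1 CPM, 1.84). Lgr4, an R-spondin receptor, went from 8.74 to 38.0 CPM (2.12), and the β-catenin target Nkd1 from 93.9 to 36.2 CPM (-1.38). These gains stand beside a background in which 7.53% of all genes were called higher in this class.

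Branchial muscle-like cells, the largest class, had low levels of the members that were called. Of 27 members tested, 4 were called higher and 3 lower, where 7.77% and 4% of all 15708 genes tested were. The medians were 0.20 and 0.02. Dkk3, a Dickkopf relative that does not block the co-receptors, fell from 12.9 CPM (11.5 to 14.4) to 6.63 CPM (5.54 to 7.88), a log2 ratio of -0.96 (-1.26 to -0.65), and the call was lost among G1 cells (-0.33) and female-like cells (-0.69). Its fall lay in the progenitor clusters, where it went from 16.99 to 6.05 CPM in the cluster led by Msc and Myf5, while in the cluster led by the contractile genes Tnnc2, Mybph and Myh3 it stood at 1.504 and 5.95 CPM. Rspo3 rose from 14 to 85 UMIs (0.598 to 4.34 CPM), a log2 ratio of 2.86 (2.03 to 3.79), and in the cluster led by Bmpr1b, Pax7 and Eya4 from 2.16 to 13.4 CPM. Median depth was 8856.5 UMIs in the latter cluster and 27409 in the cluster led by Msc and Myf5.

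The other calls in branchial muscle-like cells were not clear of the mixed blood cells. Wnt4 went from 0.855 to 2.76 CPM (log2 ratio 1.69), Rspo1 from 0.727 to 3.27 CPM (2.17), Rspo2 from 3.33 to 1.33 CPM (-1.33) and Wnt2 from 1.58 to 0.102 CPM (-3.95). In 1 mutant cell lay 26 of the 64 Rspo1 UMIs and in another 17 of the 19 Wnt1 UMIs, and 1 control cell held 43 of the 78 Rspo2 UMIs. Without the highest cell of each library Wnt1 lost those 17 UMIs and its only control UMI and gave no ratio. Rspo2 then missed the call at -0.87. Among G1 cells the calls of Wnt4 (1.05), Rspo1 (1.35) and Rspo2 (-0.88) were lost, among female-like cells those of Wnt4 (1.36) and Rspo2 (-1.11), and with male-like mutant cells those of Rspo1 (1.22) and Wnt1 (1.14). Of 15 β-catenin targets, Nkd2 (1.15 to 2.96 CPM, 1.36), Apcdd1 (3.68 to 8.11 CPM, 1.14) and Ccnd1 (51.1 to 90.6 CPM, 0.83) were higher and 0 lower. Of 9 other modulators tested, 1 was lower and 2 were higher. Wif1, a secreted WNT-binding inhibitor, went from 12.1 to 4.39 CPM (-1.46), while Tpbg and Apcdd1 were higher. The R-spondin receptor Lgr6 was higher too.

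In neuron-like cells 5 members were lower and 2 higher of 28 tested, where 7.57% and 2.3% of all 14208 genes tested were. The medians were -0.12 and -0.08. Sfrp2 fell from 49.96 CPM (43.2 to 57.4) to 14.2 CPM (11.6 to 17.1), a log2 ratio of -1.82 (-2.17 to -1.47), with 44.4% of the control UMIs in 1 cell and a log2 ratio of -1.23 without the highest cell of each library. Fzd10 rose from 9 to 85 UMIs (2.27 to 11.0 CPM, 2.28), mostly in the cluster led by Otp, Robo3 and Slc32a1, where it went from 4.98 to 17.1 CPM. Rspo3 rose from 4 to 93 UMIs (3.58, 2.18 to 5.49), 41 of them in 1 cell. Sfrp5 (8.58 to 2.34 CPM, -1.87), Dkk2 (8.08 to 2.60 CPM, -1.64), Fzd9 (8.58 to 2.86 CPM, -1.58) and Wnt4 (5.55 to 1.17 CPM, -2.25) were the other calls. Control levels of Dkk2, Fzd9 and Wnt4 were not clear of the mixed blood cells. Of the 18 mutant Sfrp5 UMIs 14 were in 1 cell, and the log2 ratio of Sfrp5 ran from -0.64 with male-like mutant cells to -3.66 without the highest cell of each library, with the call lost in the former and among G1 cells (-1.43). For Dkk2 1 cell held 16 of the 32 control UMIs, and the call was lost without the highest cells (-1.26) and among female-like cells (-1.48). The calls of Fzd9 (-1.55) and Rspo3 (1.999) were lost with male-like mutant cells, and that of Fzd9 also among female-like cells (-1.45) and without integration (-1.01).

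Lef1, a transcription factor through which β-catenin acts, went from 6.31 to 40.6 CPM in neuron-like cells (log2 ratio 2.68), while the R-spondin receptor Lgr6 went from 18.4 to 0.520 CPM (-5.15). Of 14 β-catenin targets tested there, Lef1 was the 1 called higher and Ccnd1 the 1 called lower, with a list median of -0.11. Dkkl1 and Gpc3, of 11 other modulators tested, and Vangl1, of 13 planar cell polarity genes tested, were lower as well. The clusters of this class differed in share between the libraries, with 101 control and 325 mutant cells in the cluster led by Otp, Robo3 and Slc32a1.

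Cardiomyocyte-like cells gave values for 12 members, with 0 called higher and 3 lower, where 1.71% and 4.12% of all 9776 genes tested were. The medians were -0.75 and -0.05. Sfrp1, which is known from the developing heart, fell from 206 CPM (176 to 238) to 109 CPM (97.8 to 121), a log2 ratio of -0.92 (-1.18 to -0.65). Dkk3 fell from 29 UMIs (33.5 CPM) to 38 UMIs (11.7 CPM), a log2 ratio of -1.52 (-2.25 to -0.77). The call of Sfrp1 was lost among G1 cells (-0.46), female-like cells (-0.39, from 11 and 12 cells) and male-like mutant cells (-0.54), and so was that of Dkk3 (-1.55, -0.45 and -1.24). The call of Rspo2 rested on 29 control UMIs, 72.4% of them in 1 of 54 cells. Wls, the carrier that WNT ligands need for secretion, was lower too (55.4 to 24.3 CPM, -1.19), as were the co-receptors Lrp6 (43.9 to 17.5 CPM, -1.32) and Ptk7 (24.2 to 6.46 CPM, -1.91).

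Across classes the same member could be called in opposite directions. Wnt4 was higher in epithelium-, EC-, lung and foregut mesenchyme- and branchial muscle-like cells and lower in mesenchyme- and neuron-like cells. Rspo3 was lower in mesenchyme- and mesothelium-like cells, its main sources, and higher in EC-, branchial muscle- and neuron-like cells, where it was scarce. Sfrp2 was called in 4 classes and was lower in each. In smooth muscle and mural-like cells, with too few cells for a comparison (102 and 42), it stood at 132 and 528 CPM. The finer clustering gave that name to only 39 and 25 cells, so a difference in make-up may enter these 2 levels and was not tested. Rspo2 was lower in each of the 4 classes where it was called, but not in branchial muscle-like cells without integration (0.30) or in epithelium-like cells without the pituitary-gene cluster (0.07). The libraries are the same in every class, so these calls are not independent of each other.

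The other 19 members were called in no class. They were the ligands Wnt3, Wnt3a, Wnt5a, Wnt7a, Wnt7b, Wnt8a, Wnt8b, Wnt10a, Wnt10b and Wnt16, the receptors Fzd2, Fzd3, Fzd4, Fzd6, Fzd7 and Fzd8, and Dkk1, Dkk4 and Rspo4. Fzd2 in mesenchyme-like cells, counted with 2457 and 2230 UMIs, stood at 241 CPM (232 to 251) and 240 CPM (230 to 250). Wnt8a, Dkk4, Wnt8b, Wnt1 and Rspo4 had 4, 31, 18, 42 and 65 UMIs over all kept cells. Wnt8a and Wnt8b were too sparse to be tested in any class, and the call of Wnt1 is given above. Rspo4 in mesenchyme-like cells (30 and 19 UMIs) and Dkk4 in epithelium-like cells (6 and 18 UMIs) reached the minimum of 20 UMIs and were not called.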

How the data were processed

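Droplet 5′ libraries of sorted eYFP+ cells were made for 1 control and 1 mutant pool, of 3 embryos each. The authors processed the reads with Cell Ranger 7.1.0 on mm10, per the submitters' notes, and deposited UMI counts per gene and cell, with no normalization. Whether intronic reads were counted is not given in the sources used here. Each library's counts were used as deposited.

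Cells with over 2000 and under 9000 genes and under 10% mitochondrial UMIs were integrated (Seurat 5.3.0, CCA, 2000 variable genes, 30 components) without 120 member, pathway and sex-linked genes, and clustered at resolution 0.22, the lowest in steps of 0.02 that gave 15 clusters. Clusters took a class where at least 3 markers, and 50% or more of its list, were raised 2-fold, or failing that from a subtype list by the same rule. Scrublet (scanpy 1.11.5) marked 0 control and 1 mutant cells at its own threshold, so doublets were kept in the main values, and the 162 control and 230 mutant cells with the highest scores were left out as an alternative.

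UMIs were summed per class and library. Levels carry exact Poisson intervals, shares of cells are plain percentages, and ratios carry conditional exact binomial intervals, all at 95% and for counting error only. A count of 0 entered a ratio as 3 counts. With 1 library per genotype no p-value was computed. Every member called in a class is named, as is the class with the highest level of each member with 100 UMIs or more. Pathway genes came from 7 lists, with up to 3 called genes as examples. Members were taken by a pattern of gene symbols, but these families and the lists were chosen with earlier results of these data known. Ratios were tested on simulated counts with counting error only, so that test does not cover variation between cells or embryos. Tools were Python 3.11.15, scipy 1.17.1, R 4.3.3 and edgeR 4.0.16.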

Additional observations from a re-analysis of the deposited data

Results flagged for a closer look

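Members called in both directions in different classes were looked at again. The difference between the highest and the lowest called log2 ratio was 7.92 for Sfrp5 (mesothelium-like minus mesenchyme-like cells), 4.82 for Rspo3 (neuron-like minus mesothelium-like cells), 4.71 for Wnt4 (lung and foregut mesenchyme-like minus neuron-like cells) and 3.54 for Dkk2 (lung and foregut mesenchyme-like minus neuron-like cells). These differences between classes were not tested, since each genotype had 1 library. For Sfrp5 the mesenchyme-like mutant cells held 1 UMI, for Rspo3 1 cell held 41 of 93 UMIs in mutant neuron-like cells, and for Wnt4 1 cell held 6 of the 12 mutant UMIs in lung and foregut mesenchyme-like cells.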

How the results depend on the processing

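The 21 higher and 26 lower calls became 6 and 11 when cells were thinned to 5000 UMIs, which removes most of the counts and drops cells with fewer. They became 11 and 14 when the interval had to lie beyond 2-fold. Under the other alternatives they numbered 15 to 22 higher and 22 to 29 lower. The shares of all genes called under these alternatives are not given here. Of 651 recomputed ratios of the 47 called pairs, 559 moved by less than their counting interval, 88 moved beyond it without turning round and 4 reversed. The reversed values were Wnt4 in lung and foregut mesenchyme-like cells without integration (-0.23), Rspo2 in branchial muscle-like cells without integration (0.30) and with high doublet scores removed (0.76), and Rspo2 in epithelium-like cells without the pituitary-gene cluster (0.067). The cause was not tested, apart from the pituitary-gene cluster, which held 33 of the 44 control UMIs. Without the highest cell of each library 40 of 46 pairs kept an interval beyond 1.5-fold, and without integration 42 of 47 did. With female-like cells only 31 of 46 did, with male-like mutant cells 35 of 47, among G1 cells 30 of 45 and with thinned cells 19 of 47. The removal of the highest cell, the male-like cells and the pituitary-gene cluster were alternatives chosen after seeing the data. Keeping cells with at least 1000 genes joined lung and foregut mesenchyme with smooth muscle, so that setting covers 7 classes. Median-ratio scaling shifted mesothelium-like log2 ratios by -0.10. No paired analysis was possible because each genotype had 1 library. Depth limits members under 20 UMIs in a class, for which a difference could not be read.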
